A study of Mus musculus with 16 samples.

Results

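The effect of metformin under a high fat diet was examined in lactating mouse mammary gland by comparing the 4 libraries labelled HFD with metformin (HFD metformin) with the 4 labelled HFD with control treatment (HFD control), which are 8 of the 16 libraries sequenced. The other 8 libraries are 4 NCD metformin and 4 NCD control libraries, from the other diet of the study, which the labels do not expand beyond NCD. Total RNA was taken from whole inguinal glands, which the series title places in mid-lactation. The age given for every library is postnatal day 16, counted either from the birth of the litter or from that of the mouse, and neither the strain nor the dose or route of metformin is given. Whether each gland came from a different mouse is not stated either, so p-values here reflect how far these libraries scatter, part of which may be technical. Libraries are named by group and by a number from 1 to 4 that follows accession order and pairs nothing.

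Metformin is a glucose-lowering drug that enters cells through organic cation transporters and inhibits complex I of the mitochondrial respiratory chain, and it is widely described as an activator of the kinase AMPK. The lactating gland is dominated by secretory epithelium that makes milk proteins, lactose and milk fat, embedded in a stroma of adipocytes, fibroblasts, vessels and immune cells. In whole tissue, fewer cells of a type and less RNA per cell cannot be told apart.

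Totals over genes ranged from 8649316 (HFD control 4) to 39075290 counts (HFD control 1) in the 8 HFD libraries, and HFD metformin 1 held 14508606 counts. Levels are CPM, each library being scaled to the same total after TMM adjustment between libraries. Differences are log2 fold changes with their standard error (SE), as HFD metformin minus HFD control, and a gene was called when its edgeR quasi-likelihood p, adjusted by the Benjamini-Hochberg method over 12506 tested genes, was under 0.05. The tissue showed its secretory identity in both groups, since the 20 milk protein genes with counts took 74.3 ± 1.93% of counts in HFD metformin and 74.6 ± 0.955% in HFD control libraries (SD, n = 4 each). Epithelial keratin Krt18 lay at 75.9 to 124 CPM in HFD metformin and 63.2 to 91.8 CPM in HFD control glands.

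Metformin under HFD changed few genes past the threshold. Of the 12506 genes, 21 (0.168%) were called, 16 higher (0.128%) and 5 lower (0.04%) in HFD metformin glands. The highest rises were those of Prss53, Pycard, Renbp and Ptgr1, at 2.52-fold to 3.24-fold, and the deepest fall was that of fibronectin (Fn1), at 3.24-fold. At an unadjusted p under 0.05 there were 1599 genes (12.8%), against 625.3 that chance would give, 895 of them higher and 704 lower. The median log2 fold change over all tested genes was 0.00, and 50.5% of genes had a positive value. Each of the 21 called genes had 4 of 4 HFD metformin libraries beyond the HFD control mean and no overlap between the groups, a separation that 6.65% of all tested genes showed.

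**Figure D1:**
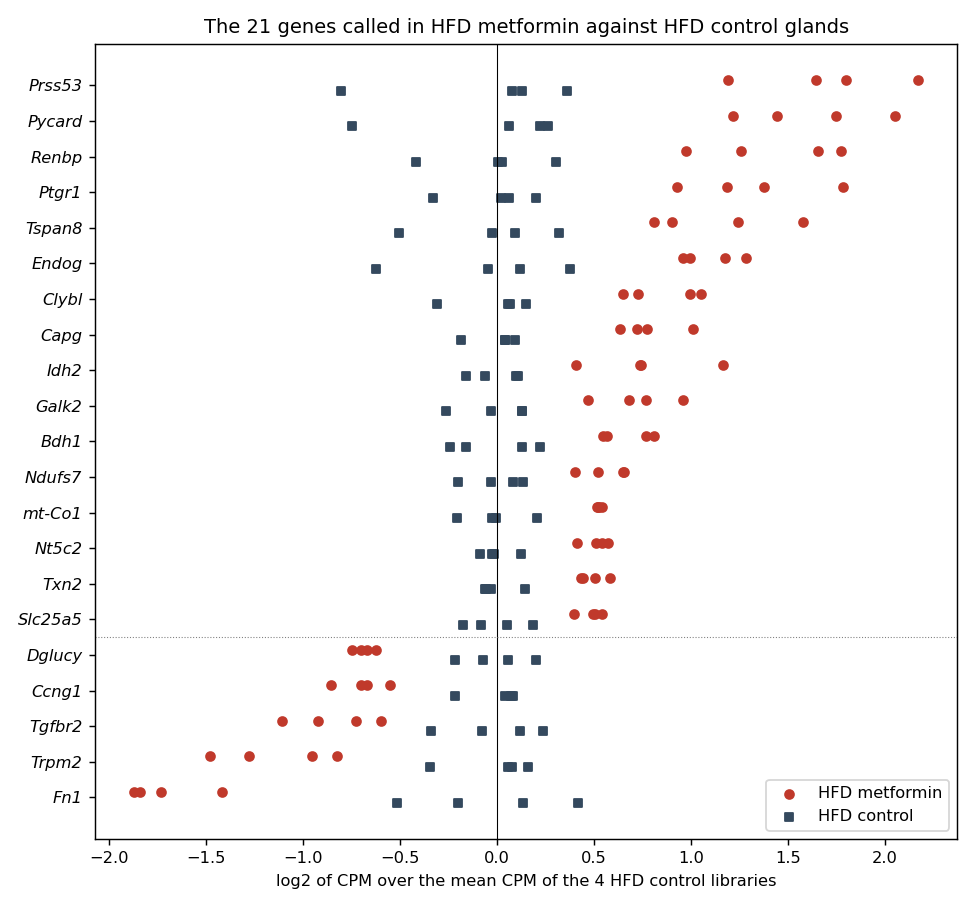
The 21 called genes, each in a row, with every HFD metformin library (circles) and HFD control library (squares) placed on the x axis by the log2 of its CPM over the mean CPM of the HFD control libraries. No circle falls within the squares of its row, and the rows run from Prss53, with the highest log2 fold change of 1.70, to Fn1 at -1.69.

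Prss53 codes for a trypsin-like serine protease. It had 9.15, 13.2, 10.2 and 6.69 CPM in HFD metformin glands, against 3.08, 3.75, 3.19 and 1.67 CPM in HFD control glands. The lowest metformin library lay above the highest control library. The log2 fold change was 1.70 ± 0.20 (SE, edgeR adjusted p = 0.00297). Pycard codes for ASC, the adaptor that joins inflammasome sensors to caspase-1. It had 10.2, 12.6, 15.6 and 8.72 CPM in HFD metformin and 4.37, 4.50, 3.92 and 2.23 CPM in HFD control glands, a log2 fold change of 1.60 ± 0.24 (edgeR adjusted p = 0.0119). For both genes HFD control 4, the shallowest library, was the lowest of its group.

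Both genes lie on the minus strand of chromosome 7, Prss53 at 127885841 to 127890970 and Pycard at 127989708 to 127993867 (GRCm38), 98.7 kb apart. Kat8, a histone acetyltransferase whose gene lies between them, had a log2 fold change of 0.39 ± 0.12 and was not called (edgeR adjusted p = 0.193). Vkorc1, the vitamin K epoxide reductase, and Prss8, the serine protease prostasin, also lie between them and each had a log2 fold change of -0.03, with no call.

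Renbp codes for N-acetylglucosamine 2-epimerase, an enzyme of sialic acid and amino sugar metabolism. It had 27, 24.9, 15.5 and 18.9 CPM in HFD metformin glands, against 7.94, 8.03, 9.74 and 5.92 CPM in HFD control glands. Its log2 fold change was 1.42 ± 0.18 (edgeR adjusted p = 0.00365). When counts were rebuilt from TPM values scaled by mean transcript length, which takes out shifts between transcripts of unequal length, the value was 0.96 and the call was lost (edgeR adjusted p = 0.357). Ptgr1 codes for prostaglandin reductase 1, which inactivates eicosanoids and reduces reactive alkenals. It had 17.8, 23.7, 15.7 and 13.1 CPM in HFD metformin and 6.97, 7.90, 7.18 and 5.47 CPM in HFD control glands, a log2 fold change of 1.34 ± 0.18 (edgeR adjusted p = 0.00457).

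The 100 bases before the RefSeq start site are shown for these 4 genes because they had the highest fold changes, and a RefSeq window existed for 19 of the 21 called genes. All are on the minus strand of GRCm38.p6 and are written in the direction of the gene. Capitals mark GGGCGG, the core of the GC box, on either strand (CCGCCC when read here).
Prss53, chr7:127890971-127891070: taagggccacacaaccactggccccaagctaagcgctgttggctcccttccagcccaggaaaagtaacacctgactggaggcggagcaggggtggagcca
Pycard, chr7:127993868-127993967: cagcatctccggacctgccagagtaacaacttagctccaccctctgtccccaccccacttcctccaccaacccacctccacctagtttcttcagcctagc
Renbp, chrX:73930851-73930950: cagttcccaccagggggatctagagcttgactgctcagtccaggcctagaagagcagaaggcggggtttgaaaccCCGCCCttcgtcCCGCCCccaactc
Ptgr1, chr4:58987079-58987178: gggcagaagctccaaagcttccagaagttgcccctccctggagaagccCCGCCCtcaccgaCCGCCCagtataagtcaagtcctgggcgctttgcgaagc
The GC box letters were found 2 times each in the Renbp and Ptgr1 windows and not in those of Prss53 and Pycard, and 24.7% of all 32851 RefSeq windows of this length hold them. The TATA letters TATAAA (5.56% of windows, either strand) and TGACNNNGC, the core of the antioxidant response element (4.82%, either strand), were in none of the 4. The matches describe letters only.

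The other rises were smaller. Tspan8, a tetraspanin of epithelial membranes, had 18.5, 13.7, 23.4 and 14.6 CPM in HFD metformin and 5.52, 9.78, 7.72 and 8.37 CPM in HFD control glands (log2 fold change 1.17 ± 0.19, edgeR adjusted p = 0.0202). Capg, which caps actin filaments, had 21.2, 25.8, 19.9 and 21.9 CPM in HFD metformin and 11.3, 13.7, 13.2 and 13.2 CPM in HFD control glands (0.79 ± 0.12, edgeR adjusted p = 0.0119). Both pairs of groups were clear of each other. Galk2, an N-acetylgalactosamine kinase, averaged 40.8 ± 5.69 CPM in HFD metformin and 24.6 ± 3.04 CPM in HFD control glands (SD, n = 4 each), 1.65-fold. Nt5c2, a cytosolic purine nucleotidase, averaged 18.5 ± 0.865 and 13.0 ± 0.822 CPM in the same order, 1.42-fold. Ina, a gene on the other strand, overlaps Nt5c2. Strand options being unknown, any reads shared by their coding sequences could not be separated, and whether those sequences overlap was not examined. Ina was listed with 0 counts in the 8 HFD libraries. With counts rebuilt from length-scaled TPM, the log2 fold change of Nt5c2 was 0.19 (edgeR adjusted p = 0.688).

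Several of the genes that rose code for mitochondrial proteins and are described together, an order chosen after the values were seen. Bdh1 interconverts acetoacetate and beta-hydroxybutyrate. It had 39.8, 47.9, 46.6 and 40.5 CPM in HFD metformin glands, against 29.9, 31.9, 24.5 and 23.1 CPM in HFD control glands (log2 fold change 0.67 ± 0.11, edgeR adjusted p = 0.0202). Idh2, the NADP-linked isocitrate dehydrogenase, had 25.3, 33.9, 25.2 and 20.1 CPM in HFD metformin and 16.3, 14.5, 13.5 and 16.2 CPM in HFD control glands (0.79 ± 0.14, edgeR adjusted p = 0.0271). The metformin groups of both genes stood wholly above the controls. Endog, a mitochondrial nuclease, averaged 14.8 ± 1.57 CPM in HFD metformin and 6.88 ± 1.87 CPM in HFD control glands (SD, n = 4 each), 2.11-fold. Clybl, a mitochondrial enzyme known in humans to clear citramalyl-CoA, averaged 11.1 ± 1.51 CPM in HFD metformin and 6.09 ± 0.811 CPM in HFD control glands, 1.80-fold.

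The respiratory chain was represented by mt-Co1 and Ndufs7. The mitochondrially encoded mt-Co1, the catalytic subunit of cytochrome c oxidase, had 9584, 9654, 9774 and 9628 CPM in HFD metformin glands, against 5824, 7754, 6603 and 6684 CPM in HFD control glands. The metformin libraries lay within a narrow band and the controls were spread below it, for a log2 fold change of 0.52 ± 0.09 (edgeR adjusted p = 0.0205). Nuclear copies of mitochondrial genes can share reads with mt-Co1. Ndufs7, a core subunit of complex I, had 37.0, 40.6, 40.7 and 34.2 CPM in HFD metformin and 28.3, 27.3, 25.2 and 22.4 CPM in HFD control glands (0.56 ± 0.10, edgeR adjusted p = 0.0393). Txn2, mitochondrial thioredoxin, rose by 1.40-fold, and Slc25a5, an ADP/ATP carrier with close paralogs and processed copies, also rose by 1.40-fold. These last genes are outside the rule for named genes and are given because they complete the called set.

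The 5 genes that fell were led by Fn1, the matrix glycoprotein fibronectin. It had 5.0, 4.63, 6.22 and 4.54 CPM in HFD metformin glands, against 14.5, 11.6, 18.2 and 22.2 CPM in HFD control glands. The highest metformin library was well under the lowest control, and the log2 fold change was -1.69 ± 0.24 (edgeR adjusted p = 0.00941). Tgfbr2, the type II receptor of TGF-beta, had 33.1, 23.2, 26.4 and 30.2 CPM in HFD metformin and 54.3, 39.5, 47.5 and 58.9 CPM in HFD control glands (-0.83 ± 0.15, edgeR adjusted p = 0.0393). Ccng1, cyclin G1, a classic p53 target, had 18.1, 18.4, 16.2 and 20.1 CPM in HFD metformin and 30.3, 25.2, 31.1 and 30.9 CPM in HFD control glands (-0.69 ± 0.12, edgeR adjusted p = 0.0202). In these genes too the groups did not meet. Trpm2, a cation channel opened by ADP-ribose, averaged 0.693 ± 0.141 CPM in HFD metformin and 1.5 ± 0.219 CPM in HFD control glands. Dglucy, a mitochondrial D-glutamate cyclase, averaged 8.75 ± 0.312 CPM in HFD metformin and 14.1 ± 1.73 CPM in HFD control glands. With counts rebuilt from length-scaled TPM, the log2 fold change was -1.99 for Trpm2 and -0.33 for Dglucy, and neither was called (edgeR adjusted p = 0.215 and 0.76).

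The number of calls rested on the fit. It shares a spread estimate with the NCD libraries, and with only the 8 HFD libraries Fn1 alone was called (edgeR adjusted p = 0.0469), while Prss53, Renbp, Ptgr1 and Pycard had edgeR adjusted p-values of 0.0536 to 0.0562. DESeq2 called 170 genes, among them all 21, and leaving out single HFD libraries gave between 3 (without HFD control 3) and 44 calls (without HFD metformin 4). No call was made when only the libraries with title numbers of 14 or more were used, which leaves 3 HFD metformin and 3 HFD control libraries, with 1220 genes at an unadjusted p under 0.05. The title numbers have a gap below 14, and HFD metformin 1 and HFD control 1 lie below it. The sign of the log2 fold change of each of the 21 genes was the same in all 21 other settings.

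**Figure D2:**
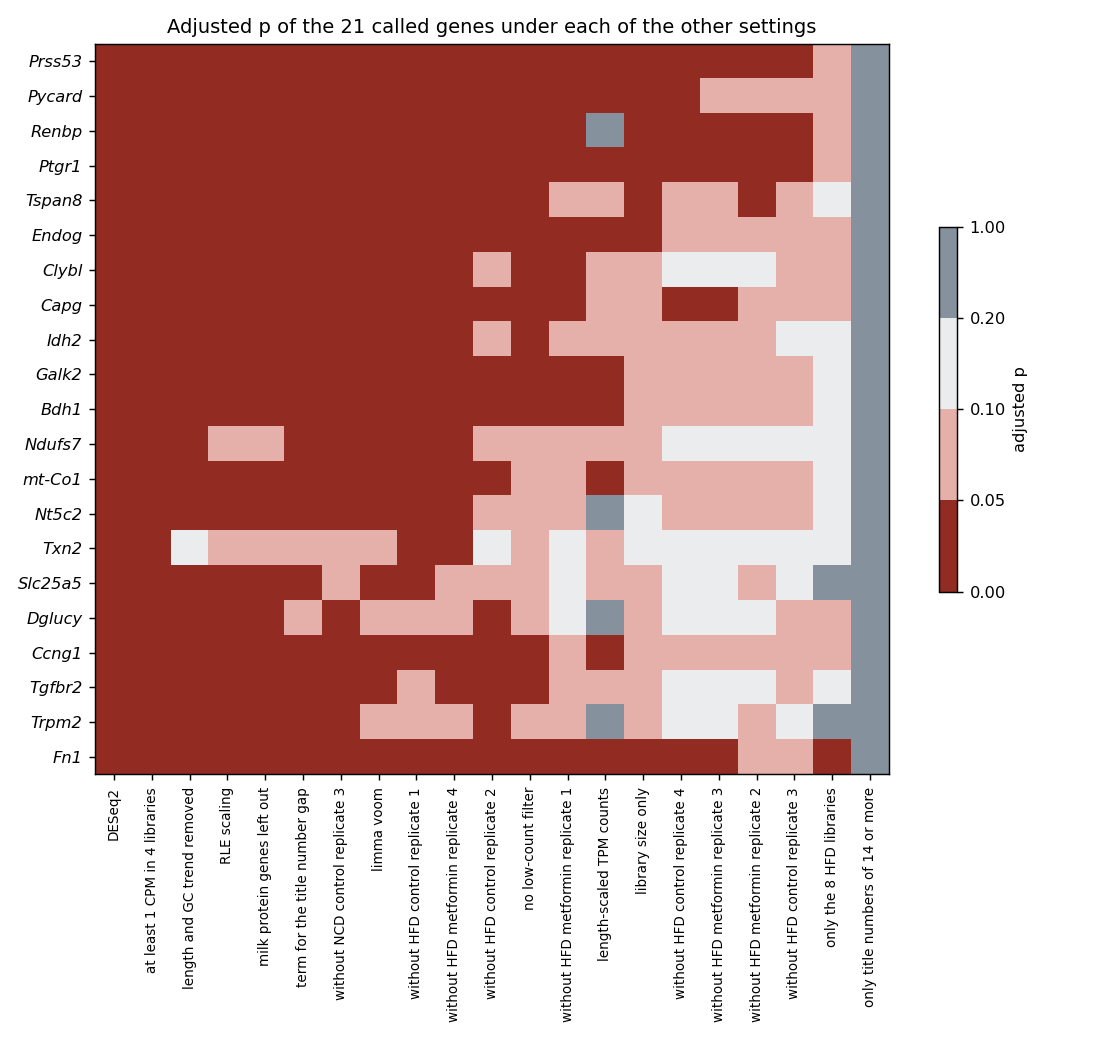
Adjusted p of the 21 called genes (rows, from highest to lowest log2 fold change) under each other setting (columns, from most to fewest of the 21 genes called), in 4 classes of colour with dark red for p under 0.05. Prss53 and Ptgr1 lost their call in 2 settings, Renbp and Fn1 in 3, and Txn2 in 17.

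Gene lists are described by counts and medians beside those of all tested genes. Coding length has to be read beside them, because among the 3132 genes with the shortest coding sequences (up to 852 bases) the median log2 fold change was 0.11, with 65.2% positive, and among the 3119 with the longest (from 2214 bases) -0.07, with 37.5% positive. Medians with the length and GC trend of each library removed are therefore given for lists of short genes.

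Genes of the respiratory chain had higher values in HFD metformin glands as a group, though few passed the test. All 13 mitochondrially encoded protein genes had a positive log2 fold change (median 0.40), and 12 without the length and GC trend (median 0.34). Of the 13, 11 had an unadjusted p under 0.05, where 7.16% of all genes did so in that direction. Of them mt-Co1 alone was called. mt-Cytb, the cytochrome b of complex III, had 3386, 3156, 3437 and 3532 CPM in HFD metformin and 2496, 2827, 2442 and 2522 CPM in HFD control glands (0.39 ± 0.08, edgeR adjusted p = 0.081). The mitochondrial genome held 2.80 ± 0.188% of counts in HFD metformin and 2.18 ± 0.18% in HFD control libraries (SD, n = 4 each), with ranges of 2.57 to 3.01% and 1.97 to 2.37% that did not overlap.

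The nuclear subunits behaved alike. Of 36 tested nuclear complex I genes, 36 had a positive value (median 0.31), and 33 without the length and GC trend (median 0.23), and Ndufs7 was called. Of 34 genes of complexes III to V, 34 were positive (median 0.35), and 32 without the trend (median 0.27), and none was called. The largest value in that list was that of Cox6a1, a subunit of cytochrome c oxidase, with 92.2, 79.8, 94.9 and 102 CPM in HFD metformin and 66.9, 66.7, 59.2 and 52.6 CPM in HFD control glands (0.59 ± 0.11, edgeR adjusted p = 0.0517). Averaged over the complex I genes, log2 CPM was 4.48, 4.43, 4.73 and 4.65 in HFD metformin libraries, against 4.44, 4.47, 4.13 and 3.88 in HFD control libraries. HFD control 1 and 2 stood level with HFD metformin 1 and 2, and HFD control 3 and 4 were lower. Leaving out each HFD library in turn kept the median of this list between 0.24 and 0.40.

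Citric acid cycle and ketone body genes also leaned upward. Of 26 genes of pyruvate dehydrogenase and the citric acid cycle, 23 were positive (median 0.22), 11 had an unadjusted p under 0.05 and Idh2 was called. Of 8 ketone body genes 7 were positive (median 0.31) and Bdh1 was called, while Oxct1, which commits acetoacetate to oxidation, averaged 272 ± 36.3 CPM in HFD metformin and 179 ± 14.1 CPM in HFD control glands (0.60 ± 0.12, edgeR adjusted p = 0.0517). Bcat2, the mitochondrial branched-chain aminotransferase, averaged 41.2 ± 8.02 CPM in HFD metformin and 22.9 ± 3.98 CPM in HFD control glands (0.84 ± 0.19, edgeR adjusted p = 0.0839). Among 34 fatty acid oxidation genes 29 were positive (median 0.22) with no call.

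Ribosomal protein genes showed the same lean. All 75 cytosolic ribosomal protein genes tested were positive, and 72 without the length and GC trend. The median was 0.30, and 0.20 without the trend. At an unadjusted p under 0.05 there were 44, where 7.16% of all genes were higher, yet none was called. Their mean log2 CPM was 7.48, 7.31, 7.59 and 7.57 in HFD metformin and 7.33, 7.40, 7.11 and 6.87 in HFD control libraries. The groups overlapped, as HFD metformin 2 lay under HFD control 1 and 2. The share of counts of these genes was 1.67 ± 0.11% in HFD metformin and 1.40 ± 0.137% in HFD control libraries (SD, n = 4 each). Of 75 mitochondrial ribosomal protein genes 69 were positive (median 0.21), and 66 without the trend (median 0.13), with no call. Without HFD control 4 the medians were 0.20 for the cytosolic and 0.11 for the mitochondrial list. Many of these genes have processed pseudogenes, so their individual counts are uncertain.

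**Figure D3:**
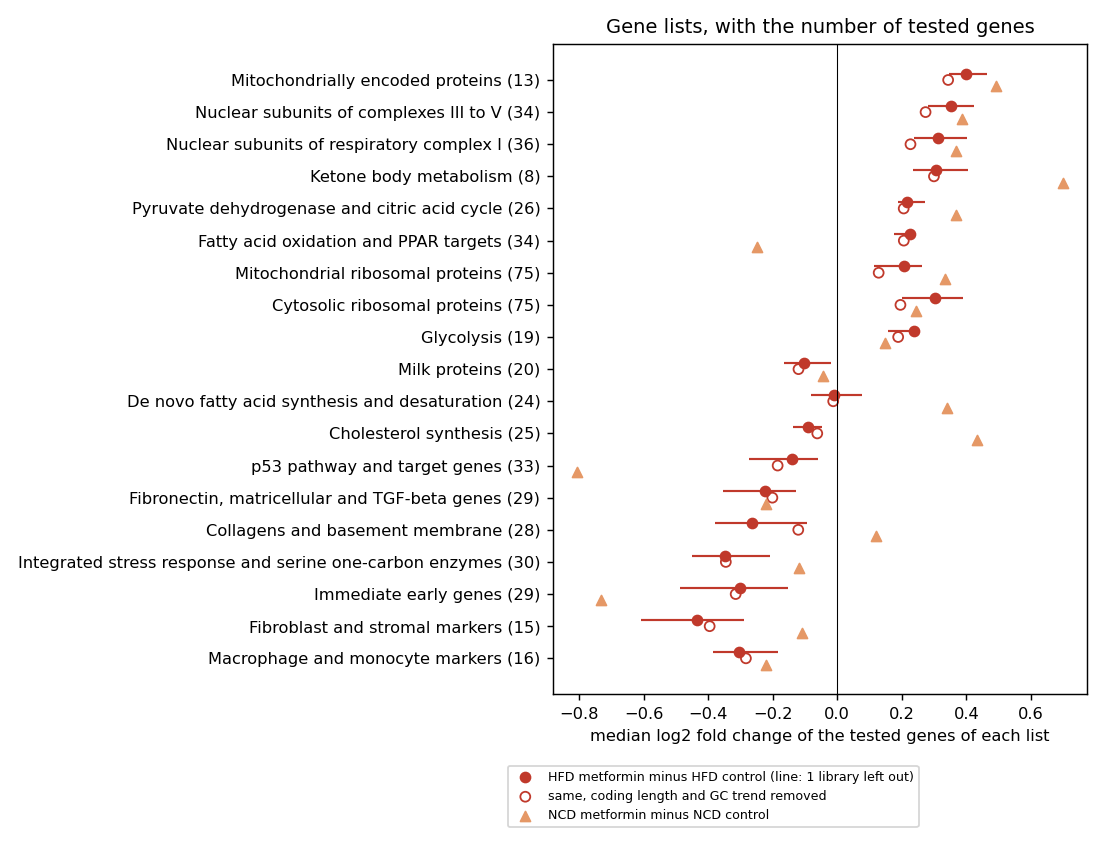
Median log2 fold change of the tested genes of 19 lists for HFD metformin minus HFD control (filled circles, with a line for the range of medians when each HFD library is left out), the same with the length and GC trend removed (open circles), and NCD metformin minus NCD control (triangles). Respiratory chain lists have medians of 0.31 to 0.40 on HFD, and cholesterol synthesis lies at -0.09 on HFD and 0.43 on NCD.

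Each of the 4 genes with the highest rises was the sole called member of its list. Of 40 tested antioxidant and NRF2 target genes 22 were positive (median 0.05), 11 were higher and 3 lower at an unadjusted p under 0.05, and Ptgr1 alone was called. Ftl1, the ferritin light chain, averaged 342 ± 45.5 CPM in HFD metformin and 223 ± 17.6 CPM in HFD control glands (0.61 ± 0.14, edgeR adjusted p = 0.09). Of 19 inflammasome and cytokine genes 8 were positive, and Pycard alone was called. Il1a, the cytokine interleukin 1 alpha, lay at 0.0363 to 0.134 CPM in HFD metformin and 0.223 to 0.699 CPM in HFD control glands (-2.30 ± 0.57, edgeR adjusted p = 0.122), close to the level of 3 counts. Of 20 sialic acid and hexosamine genes 13 were positive with Renbp called, and of 22 serine proteases and inhibitors 10 were positive with Prss53 called.

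Genes of the integrated stress response and serine-derived one-carbon metabolism were mostly lower. Of 30 tested genes 24 had a negative value (median -0.35), 8 had an unadjusted p under 0.05, where 5.63% of all genes did so in that direction, and none was called. Without HFD control 1, which was the highest library for Mthfd2, the median was -0.21. Averaged over the list, log2 CPM was 4.09, 3.86, 3.69 and 4.26 in HFD metformin and 4.80, 4.33, 4.46 and 4.03 in HFD control libraries. The groups overlapped, as HFD control 4 lay under HFD metformin 1 and 4. Mthfd2, a mitochondrial folate enzyme, had 1.69, 1.09, 2.73 and 3.82 CPM in HFD metformin and 13.4, 7.42, 6.23 and 6.59 CPM in HFD control glands (-1.85 ± 0.40, edgeR adjusted p = 0.0812). Gdf15, a stress cytokine, had 2.31, 3.22, 1.21 and 3.60 CPM in HFD metformin and 20.2, 6.72, 18.2 and 5.58 CPM in HFD control glands (-2.30 ± 0.55, edgeR adjusted p = 0.114). The groups of both genes were apart, with a wide spread among the controls. Aldh1l2, a mitochondrial formyl-folate dehydrogenase, averaged 4.71 ± 1.26 CPM in HFD metformin and 10.3 ± 1.17 CPM in HFD control glands (-1.13 ± 0.24, edgeR adjusted p = 0.081).

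Matrix genes leaned the same way. Of 29 fibronectin, matricellular and TGF-beta genes 21 were negative (median -0.22) and 2, Fn1 and Tgfbr2, were called lower. Of 28 collagen and basement membrane genes 24 were negative (median -0.27), none was called, and without the length and GC trend the median was -0.12. Without HFD control 4 the medians were -0.09 for the collagen list and -0.13 for the fibronectin list, and the fibronectin list had -0.34 without HFD control 1 and -0.35 without HFD control 2. Col14a1, a fibril-associated collagen, had 5.69, 5.34, 4.61 and 5.02 CPM in HFD metformin and 7.89, 6.99, 14.1 and 10 CPM in HFD control glands (-0.92 ± 0.19, edgeR adjusted p = 0.0605). Col3a1 averaged 140.5 ± 4.96 CPM in HFD metformin and 216 ± 62.5 CPM in HFD control glands, and its groups overlapped.

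Markers of fibroblasts and stroma were mostly lower too, but they include the collagen genes Col1a1 and Col3a1, so the list is not separate from the collagen values. Of 15 tested markers 11 were negative (median -0.43) and none was called, and their summed level was 399 to 646 CPM in HFD metformin and 479 to 705 CPM in HFD control libraries. Their mean log2 CPM was 3.08, 2.95, 2.69 and 2.70 in HFD metformin libraries, against 2.95, 2.96, 3.48 and 3.46 in HFD control libraries. HFD control 3 and 4, the libraries with the lowest values for nuclear subunits of the respiratory chain, had the highest stromal values, while the mitochondrially encoded genes were lowest in HFD control 1. The part of the stromal markers in the Fn1, Tgfbr2 and collagen values was not tested. Macrophage markers were negative in 13 of 16 (median -0.31, and -0.19 without HFD control 3), with summed levels of 117 to 156 CPM in HFD metformin and 123 to 151 CPM in HFD control libraries. The Fn1 log2 fold change lay between -1.83 and -1.52 over all settings. It was called without HFD control 4 (edgeR adjusted p = 0.0369) and was not called without HFD control 3 (0.0503) or HFD metformin 2 (0.0529).

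Marker sums of epithelium and adipocytes overlapped between the groups. Adipocyte markers were positive in 14 of 17 (median 0.43, but 0.24 without HFD metformin 1 and 0.21 without HFD metformin 2), beside the ketone body and fatty acid oxidation genes described above, and their part in those values was not tested. Summed luminal markers were 657 to 745 CPM in HFD metformin and 581 to 721 CPM in HFD control libraries, and summed adipocyte markers 3647 to 4293 CPM and 3174 to 3993 CPM in the same order. Such sums follow their most abundant members. By mean log2 CPM, luminal markers were at 3.45 in HFD control 4, the shallowest library, against 4.23 to 4.37 in the other HFD control libraries. Adipoq, the adipocyte hormone adiponectin, had 40.7, 37.6, 9.84 and 14.7 CPM in HFD metformin and 19.4, 10.6, 14.6 and 32.4 CPM in HFD control glands. It was thus a small part of the adipocyte sums, which rest on more abundant members. Myoepithelial markers were positive in 9 of 16 (median 0.07), and Acta2, smooth muscle actin, averaged 171 ± 55.0 CPM in HFD metformin and 147 ± 56.6 CPM in HFD control glands (0.22 ± 0.25, edgeR adjusted p = 0.756). HFD metformin 1 held 185 CPM of skeletal muscle markers, and the highest HFD control library held 27.7 CPM. Cell cycle genes had a median of 0.64 with 30 of 32 positive, and 0.02 without HFD metformin 4, the library in which Cdk1, a mitotic kinase, was at 3.82 CPM against 0.769 to 1.07 CPM in the other HFD metformin libraries.

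Milk synthesis genes showed no call. Of 20 milk protein genes 10 were positive (median -0.10, and -0.02 without HFD metformin 2 to -0.17 without HFD metformin 3), and at an unadjusted p under 0.05 there were 6 lower and 1 higher. Of 14 milk fat globule and lipid droplet genes 11 were negative, 3 of them lower and 1 gene higher at that p. Csn2, beta-casein, averaged 175974 ± 21525 CPM in HFD metformin and 158225 ± 4784 CPM in HFD control glands (0.15 ± 0.09, edgeR adjusted p = 0.52). Wap and Lalba, whey acidic protein and alpha-lactalbumin, had log2 fold changes of 0.12 ± 0.12 and 0.18 ± 0.14. Lower values were found for Mfge8, a milk fat globule protein, with 3692, 3586, 3737 and 4466 CPM in HFD metformin and 6985, 5132, 4796 and 5293 CPM in HFD control glands (-0.52 ± 0.12, edgeR adjusted p = 0.0856). Glycam1, a milk mucin, had 1862, 2029, 3476 and 3246 CPM in HFD metformin and 6544, 4555, 4586 and 3987 CPM in HFD control glands (-0.89 ± 0.22, edgeR adjusted p = 0.114). The groups of both genes did not overlap, but neither passed the test.

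Lipid synthesis genes were split. Of 24 fatty acid synthesis and desaturation genes 12 were positive (median -0.01) and none was called. Fasn, fatty acid synthase, averaged 4309 ± 747 CPM in HFD metformin and 4818 ± 462 CPM in HFD control glands, and Acaca, acetyl-CoA carboxylase, averaged 516 ± 65.2 CPM and 636 ± 118 CPM in the same order. Their log2 fold changes were -0.16 ± 0.21 and -0.30 ± 0.21, and the groups overlapped. Acly, Scd1 and Lpl, which supply cytosolic acetyl-CoA, desaturate fatty acids and take up plasma fat, had values of 0.13 ± 0.15, 0.19 ± 0.22 and -0.17 ± 0.15. Of 25 cholesterol synthesis genes 20 were negative (median -0.09, and -0.05 without HFD control 2), among them Cyp51, a sterol demethylase, with 13.4 ± 1.36 CPM in HFD metformin and 20.5 ± 3.43 CPM in HFD control glands (-0.62 ± 0.18, edgeR adjusted p = 0.181).

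Genes of AMPK and of metformin uptake were not called. Of 13 AMPK subunit and upstream kinase genes 6 were positive (median -0.04). The catalytic subunit genes Prkaa1 and Prkaa2 had log2 fold changes of -0.68 ± 0.30 and -0.55 ± 0.24 (edgeR adjusted p = 0.359 and 0.364), with overlapping groups. Cab39l, a scaffold of the upstream kinase LKB1, had 35.5, 30.5, 30.8 and 37.4 CPM in HFD metformin and 20.5, 26.7, 24.7 and 24.2 CPM in HFD control glands (0.48 ± 0.12, edgeR adjusted p = 0.13). Of 11 transporter genes listed for metformin 6 passed the filter on low counts. The cation transporter Slc22a3 lay at 0.0895 to 0.418 CPM in HFD metformin and 0.134 to 0.558 CPM in HFD control glands, near the 0.0768 to 0.347 CPM that 3 counts represent in these libraries.

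The same treatment on the other diet shares no library with this comparison. Both were drawn from the same fit, which has a common spread estimate for each gene, so their calls are not independent. On NCD, 1255 genes (10%) were called between NCD metformin and NCD control glands, 501 higher (4.01%) and 754 lower (6.03%). Of the 21 genes called on HFD, 16 were also called on NCD, all in the same direction, which is 76.2% of the 21 and 1.27% of the 1255. NCD control 3 held 4913 CPM of skeletal muscle markers, and without it 788 genes (6.24%) were called on NCD, 15 of the 21 among them. Over all tested genes, 64.9% had the same sign in both comparisons. The 501 genes that rose on NCD had a median of 0.52 there and 0.23 on HFD, with 446 positive on HFD. The 754 that fell had medians of -0.78 on NCD and -0.16 on HFD, with 587 negative on HFD. Both sets were chosen by their NCD values, which enlarges their NCD medians but not those on HFD. These medians therefore cannot be used to compare the size of the difference between the diets. Over all tested genes the median absolute log2 fold change was 0.18 on HFD and 0.25 on NCD.

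**Figure D4:**
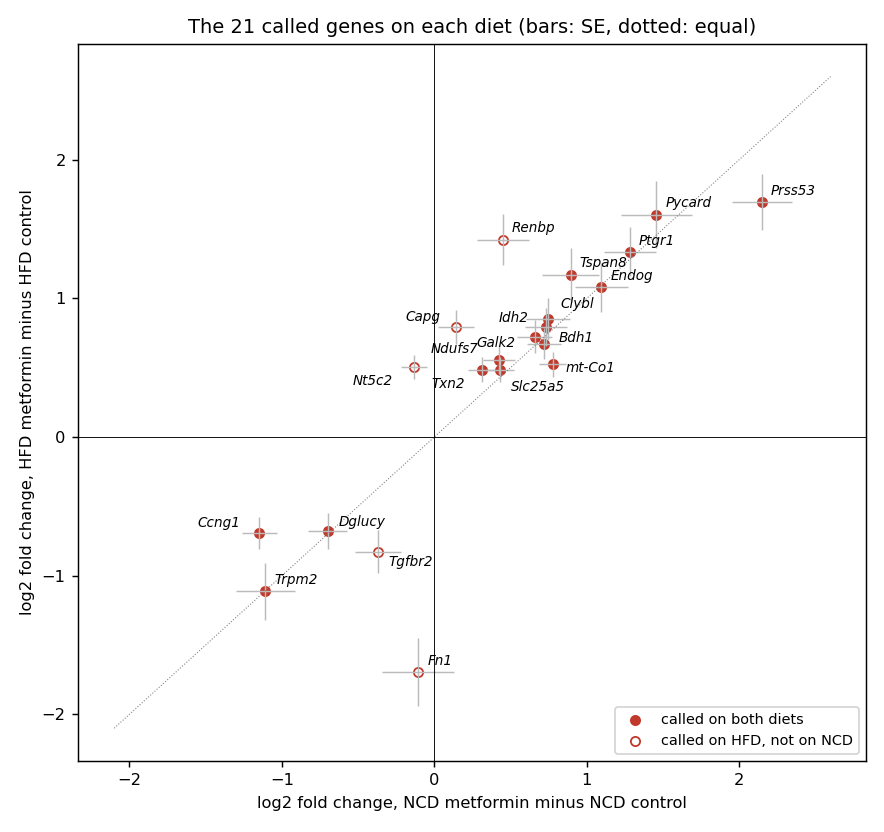
Log2 fold change of the 21 called genes for HFD metformin minus HFD control (y axis) against NCD metformin minus NCD control (x axis), with SE bars and a dotted line of equality. Filled points are the 16 genes called on both diets, and the open points are Renbp, Capg, Nt5c2, Tgfbr2 and Fn1.

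Whether the metformin difference itself depended on diet was tested by the interaction. No gene was called by edgeR, with 1243 genes (9.94%) at an unadjusted p under 0.05 and a lowest adjusted p of 0.18, while DESeq2 called 22 and limma voom 0. Prss53 had 12.3, 13.5, 13.7 and 13.8 CPM in NCD metformin and 2.68, 2.96, 2.95 and 3.40 CPM in NCD control glands, a log2 fold change of 2.15 ± 0.20, and its interaction was -0.45 ± 0.28 (edgeR adjusted p = 0.604). Bdh1 averaged 62.2 ± 2.95 CPM in NCD metformin and 37.8 ± 3.69 CPM in NCD control glands, 0.72 ± 0.11 on the log2 scale, beside 0.67 on HFD. Endog, Trpm2 and Dglucy had NCD values of 1.10, -1.11 and -0.70, beside 1.08, -1.11 and -0.68 on HFD.

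The 5 genes called on HFD and not on NCD included Fn1 and Renbp. Fn1 had 6.94, 5.58, 9.63 and 4.46 CPM in NCD metformin and 9.06, 6.8, 5.08 and 7.55 CPM in NCD control glands, with overlapping groups (-0.11 ± 0.24). Its interaction was -1.59 ± 0.34 (edgeR adjusted p = 0.334). Beside this, the diet comparison of HFD control with NCD control glands, which shares the HFD control libraries and had 8 calls (0.064% of genes), gave 1.21 ± 0.24 for Fn1 (edgeR adjusted p = 0.0863). Renbp had 20.5, 24.8, 24.2 and 22.9 CPM in NCD metformin and 18.7, 17.1, 12.8 and 19 CPM in NCD control glands (0.45 ± 0.17). Its interaction was 0.97 ± 0.25 (edgeR adjusted p = 0.334), and its diet value was -1.08 ± 0.18 (edgeR adjusted p = 0.0348). For both genes the HFD control group was the one that stood apart from the other 3. Being picked for a call on HFD and none on NCD favours genes in which an HFD group stands apart, so this pattern was not tested.

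**Figure D5:**
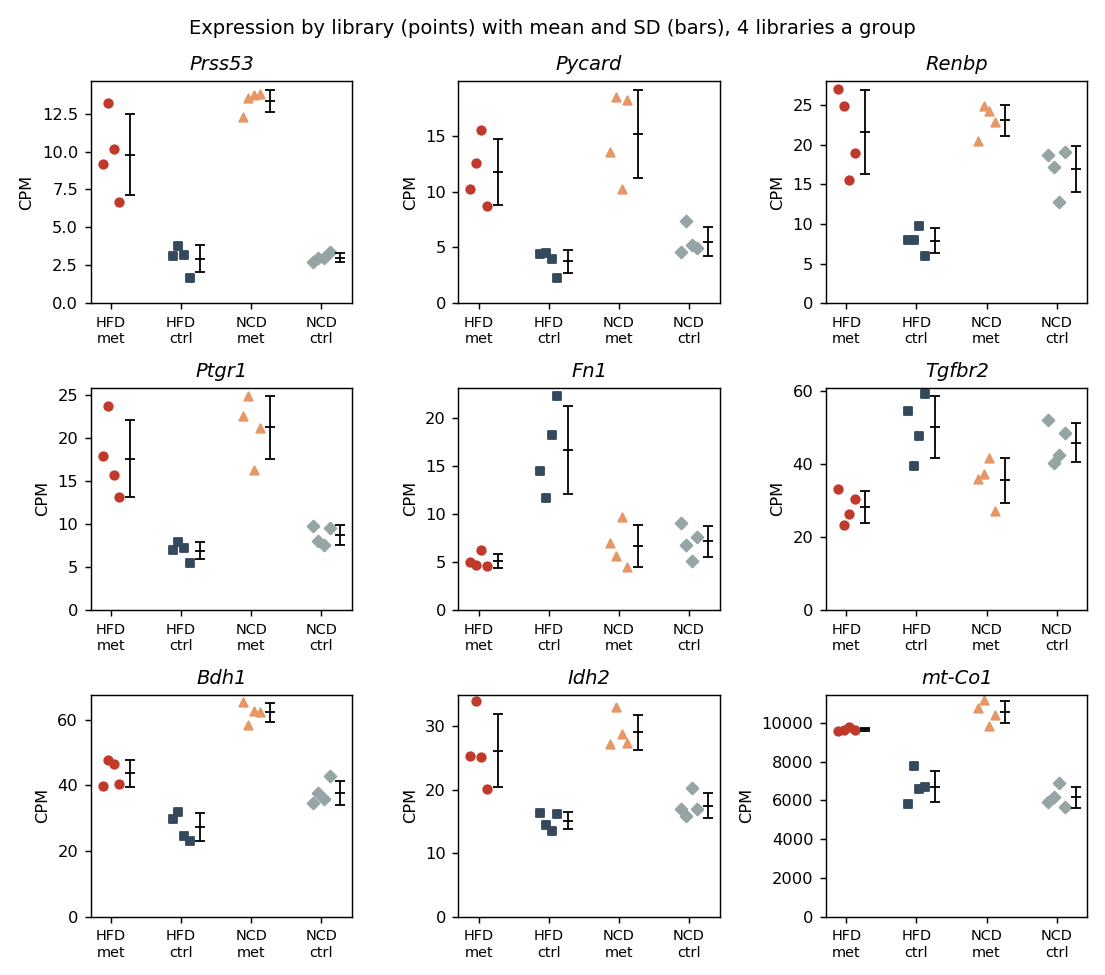
CPM of 9 called genes in every library of the 4 groups (points), with the mean and SD of each group (bars), on linear axes that start at 0. Fn1 is high in HFD control glands alone, at 16.6 CPM on average, and Renbp is low there, at 7.91 CPM, while Prss53 and Bdh1 are higher under metformin on both diets.

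The lowest interaction p-values outside the called set were those of Mgea5 and Eda2r. Mgea5, the enzyme that removes O-linked N-acetylglucosamine from proteins, had 68.5, 65.6, 49.5 and 63.6 CPM in HFD metformin and 44.7, 49.5, 45.0 and 44.3 CPM in HFD control glands. It averaged 36.7 ± 6.61 CPM in NCD metformin and 58.2 ± 4.97 CPM in NCD control glands, so that its interaction was 1.10 ± 0.18 (edgeR adjusted p = 0.18). Eda2r, a p53-responsive receptor of the TNF receptor family, averaged 2.03 ± 0.844 CPM in HFD metformin and 2.25 ± 0.491 CPM in HFD control glands. On NCD it averaged 0.407 ± 0.0725 CPM with metformin and 2.18 ± 0.283 CPM without (interaction 2.23 ± 0.39, edgeR adjusted p = 0.18). Nfkbia, Arhgef15 and Slc25a20, an NF-kappa-B inhibitor, an endothelial exchange factor and the carnitine carrier, had opposite signs on the diets, at 0.55, -0.47 and 0.37 on HFD and -0.63, 0.96 and -0.78 on NCD (edgeR adjusted p = 0.334 each).

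Some lists had unlike medians on the diets. The 33 p53 target genes had a median of -0.14 on HFD, with Ccng1 called lower. That median was -0.27 without HFD metformin 1 and -0.06 without HFD metformin 3. On NCD their median was -0.81 and 18 were called lower, where 6.03% of all genes were. Without NCD control 3, 12 were called lower on NCD, where 418 of 12636 tested genes were. Cdkn1a, the p53 target p21, which was singled out after its values were seen, averaged 8.5 ± 2.24 CPM in HFD metformin and 17.4 ± 6.39 CPM in HFD control glands (-1.03 ± 0.33, edgeR adjusted p = 0.198). On NCD it averaged 2.51 ± 1.29 CPM with metformin and 17.4 ± 5.42 CPM without, and its interaction was 1.77 ± 0.47 (edgeR adjusted p = 0.334). Cholesterol synthesis genes were positive in 5 of 25 on HFD and in 22 of 25 on NCD, where 49.7% of all genes were positive. On NCD 6 of the 25 were called higher, beside 4.01% of all genes. An unadjusted interaction p under 0.05 was found for 11 of the 25, beside 9.94% of all genes. It was also found for 14 of the 33 p53 target genes and 14 of the 34 fatty acid oxidation genes. Fatty acid oxidation genes were positive in 29 of 34 on HFD and 12 of 34 on NCD (14 of 34 without NCD control 3), with medians of 0.22 and -0.25. The interaction of no single gene of these lists passed the adjusted threshold, so a difference between the diets is not shown for any of them.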

How the data were processed

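The authors deposited an estimated count for each transcript of each library, in the layout of Salmon per the file headers. The authors also deposited TPM per transcript, relative to effective length. The submitters' processing notes name Salmon 1.3.0, DESeq2 1.28.1 and GRCm38.p6 without roles, and the kit was directional per the labels' protocols. No source used here gives the strand or bias options.

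All 56929 coding transcripts found in the same version in GENCODE M21 had a listed length within 3 bases of their coding length, so coding sequence alone was measured. Estimated counts of 57452 of 58204 transcripts were summed to 22196 genes and rounded, and 752 unmatched transcripts (0.165 to 0.218% of counts) were left out. No library looked like a repeat of another (chi-square over its degrees of freedom at least 13.4 in 120 pairs).

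The test was the two-sided quasi-likelihood test of edgeR 4.0.16 in R 4.3.3, with means for the 4 groups fitted to all 16 libraries after filterByExpr and TMM scaling. There were 12 residual and 4.38 prior degrees of freedom, and the biological coefficient of variation common to all genes was 0.233. The code was tested on simulated data. limma 3.58.1 (voom) and DESeq2 1.42.0 served as alternatives. List means use log2 CPM with a prior count of 2, and the floor of 3 counts covers counting error only.

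Members, lists and the naming rule were chosen with earlier results of these data known. The rule names called genes averaging at least 1 CPM over the HFD libraries, clone names excepted: at most 12 at each end of the log2 fold change, plus the 6 of lowest p each way. To these it adds at most 4 genes a list and 6 interaction genes by p, and Csn2, Wap, Lalba, Fasn, Acaca, Acly, Scd1, Lpl, Adipoq, Krt18, Acta2, Prkaa1, Prkaa2 and Slc22a3 whatever their values. Of 21 alternatives, 2 (the length and GC trend, and NCD control 3 left out) were added after seeing the data.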

Additional observations from a re-analysis of the deposited data

Results flagged for a closer look

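In 274 groups of 4 libraries, covering named genes and list means, the highest or lowest library was tested for its distance from the other 3 (gap over range, above the 95% critical value of Dixon). Chance alone marks about 1 in 20 groups, and 20 groups were marked. HFD control 1 was marked 5 times, HFD metformin 4 was marked 4 times, HFD control 2 and HFD control 4 were marked 3 times each, HFD metformin 1 and HFD metformin 3 were marked 2 times each, and HFD control 3 was marked 1 time.

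HFD metformin 4 was high for the mitotic kinases Plk1, at 3.34 CPM against 0.403 to 0.675 CPM in the other HFD metformin libraries, and Cdk1, at 3.82 CPM against 0.769 to 1.07 CPM. It was low for Igfbp5, an IGF-binding protein, at 0.509 CPM against 0.671 to 0.692 CPM, and for Bcat2, at 29.3 CPM against 43.5 to 46.3 CPM. HFD metformin 3 was high for Sdhd, a subunit of complex II, at 30.3 CPM against 24.3 to 25 CPM, and low in the mean of the p53 genes, at a log2 CPM of 2.15 against 2.50 to 2.57. HFD metformin 1 was low for Cyc1, cytochrome c1, at 80.5 CPM against 90.7 to 92.2 CPM, and high in skeletal muscle markers, at a mean log2 CPM of 1.82 against -2.64 to -2.20.

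HFD control 1 was high for Txn2 (9.31 CPM, against 8.08 to 8.26 CPM in the other HFD control libraries) and Mthfd2 (13.4 CPM, against 6.23 to 7.42 CPM). In mean log2 CPM it was high for cholesterol synthesis (3.48, against 3.28 to 3.31) and erythroid markers (7.06, against 4.78 to 5.13), and low for Rag GTPases, folliculin and TFE factors (2.90, against 3.03 to 3.05). HFD control 2 was low for Ccng1 (25.2 CPM, against 30.3 to 31.1 CPM) and high for Mgea5 (49.5 CPM, against 44.3 to 45.0 CPM) and Nfkbia (64.7 CPM, against 47.9 to 48.3 CPM). HFD control 3 was high in skeletal muscle markers, at a mean log2 CPM of 0.29 against -2.29 to -2.01. HFD control 4 was high for Stat5a, the transcription factor of prolactin signalling (59.2 CPM, against 54.6 to 54.8 CPM), and for Scd1 (356 CPM, against 168 to 188 CPM), and low in luminal markers (mean log2 CPM 3.45, against 4.23 to 4.37).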

How the results depend on the processing

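No paired analysis was possible because no label pairs libraries across groups. Calls under HFD were 21 in all, 16 higher and 5 lower. They were 7 (6 higher, 1 lower) with scaling by library size only, 170 (118 and 52) with DESeq2, 1 (0 and 1) with only the 8 HFD libraries, 9 (7 and 2) with length-scaled TPM counts and 0 (0 and 0) with only title numbers of 14 or more, and 3 were lower without the low-count filter. Leaving out single libraries gave 3 to 44 calls, 3 to 32 of them higher and 0 to 12 lower. On NCD, where 1255 were called, there were 675 with length-scaled TPM, 1 with only title numbers of 14 or more, and 788 (without NCD control 3) to 1461 (without HFD control 4) when single libraries were left out. The interaction, with 0 calls by edgeR, had 22 with DESeq2. HFD control against NCD control had 8 calls, and 39 with library size only, 65 with DESeq2, 3 with length-scaled TPM, 5 with a term for the title number gap, 1 with only title numbers of 14 or more and 2 to 12 when single libraries were left out. Signs turned for 4 uncalled genes, Wap (-0.0128 with the length and GC trend removed), Scd1 (-0.022 with only title numbers of 14 or more), Slc22a3 (-0.63 to 0.10 when single libraries were left out) and Eda2r (-0.42 to 0.00843 likewise). Title numbers of 14 or more leave 2 NCD metformin libraries and 1 NCD control library, which is assumed to vary like the other groups, so the NCD and diet counts of that setting say nothing about stability. The causes were not tested. Of 441 values of the 21 called genes under other settings, 266 stayed called, 175 did not pass and 0 turned sign. Depth limits genes near 0.0768 to 0.347 CPM, the level of 3 counts.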

Other observations

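Some genes outside the groups described above had large but scattered differences. Pip, prolactin-induced protein, a product of exocrine glands, had 3.46, 0.515, 3.31 and 12.9 CPM in HFD metformin and 37.9, 121, 15.7 and 10.4 CPM in HFD control glands. The groups overlapped, and the log2 fold change was -3.18 ± 0.80 (edgeR adjusted p = 0.126), beside -4.41 on NCD (edgeR adjusted p = 0.0109). Car6, a secreted carbonic anhydrase, averaged 0.94 ± 0.575 CPM in HFD metformin and 4.15 ± 2.15 CPM in HFD control glands (SD, n = 4 each), a log2 fold change of -2.27 ± 0.60 (edgeR adjusted p = 0.138). Rragd, a Rag GTPase of lysosomal nutrient sensing, had 6.92, 9.49, 5.28 and 3.60 CPM in HFD metformin and 0.885, 2.93, 3.76 and 2.01 CPM in HFD control glands (1.39 ± 0.37, edgeR adjusted p = 0.142). Its lowest metformin library lay just under its highest control. Of 34 lysosome and vacuolar ATPase genes 25 were positive (median 0.14), 12 of them at an unadjusted p under 0.05, and none was called.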
